A study of Mus musculus with 6 samples.

Results

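The nuclear genes of the mitochondrial respiratory chain were examined in open chromatin of mouse T follicular helper (Tfh) cells, the CD4 T cells that help B cells in germinal centres. A gene was a member if its symbol in the deposited peak list began with Nduf, Cox4 to Cox8, Uqcr or Atp5, or was Sdha, Sdhb, Sdhc or Sdhd. These names took in 87 of the 19109 genes with a listed peak, and 280 of the 282898 peaks. The choice used names only and no measured value.

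The assay was ATAC-seq, which reads open DNA from the places where a transposase can insert adaptors. The 6 libraries were 1 each of the sorted populations Tfh21, Tfh214 and Tfh4 from Stat6 wild-type (WT) mice and from Stat6 knockout (KO) mice. All mice were of strain C57BL/6 and untreated, and Stat6 encodes the transcription factor that acts downstream of the interleukin 4 receptor. The sorted cells of a genotype came from 10 mice, and 50000 cells entered each library. The allele of the knockout, the age of the mice and the tissue were not given in the sources used here. With 1 library per genotype and population there were no replicates, so the genotype and the mice pooled or libraries prepared for it cannot be told apart, and whether the genotypes differ more in some populations cannot be tested. The markers of T cells and of Tfh cells had start-site peaks for 7 of 7 genes each. Tfh markers summed to between 178 and 254 CPM (reads per 1000000 reads counted in peaks), with a median of 27 per marker. T cell markers summed to between 68.6 and 102 CPM, with a median of 6.1 per marker. Of 8 B cell markers 1 had a start-site peak, with 0.728 to 4.04 CPM, and 6 had a peak of any kind, with 104 to 156 CPM in all, while Ms4a1 and Cd79a had none. Of the 2 CD8 T cell markers Cd8b1 had a start-site peak (1.25 to 7.28 CPM) and Cd8a had no peak. Of 4 NK cell markers 2 had a start-site peak (1.25 to 9.47 CPM) and Ncr1 had no peak. The myeloid list had start-site peaks under 5 of 8 symbols, with 39.3 to 60.1 CPM in sum and a median of 2.3 per marker. Its symbols Adgre1 and Emr1 name the same gene, and no peak was listed under Emr1. The part of these lists in the results was not tested.

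The respiratory chain sits in the inner mitochondrial membrane. Complexes I and II pass electrons from NADH and succinate to ubiquinone, complex III passes them to cytochrome c, and complex IV passes them to oxygen. Complexes I, III and IV pump protons, and complex V, the ATP synthase, uses the proton gradient to make ATP. Most members encode nuclear subunits of these complexes, the Ndufaf members encode assembly factors of complex I, and other subunits are encoded in the mitochondrial genome. Members were assigned to complexes by name alone, so Cox7a2l, known for supercomplex assembly, stands with complex IV and Atp5sl, known for complex I assembly, with complex V. The nuclear promoters are known for CpG islands and for sites of nuclear respiratory factor 1 (NRF1), the ETS factor GABP and YY1.

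The RefSeq promoter table (build GRCm38.p6, 250 bases before to 50 after the start) held 75 promoters of 70 members and had no entry for the other 17. Among the 75, 49.3% held at least 1 of the motifs GCGCATGC or TGCGCA (NRF1), CCGGAAG (ETS) and AAGATGGC (YY1), read on both strands, where the NRF1 patterns can overlap each other. The share was 18.1% of all 32851 promoters and 36.6% of the 7183 promoters of genes with enough start-site reads for the tests below. The 6 promoters printed here are those of members on which the later results turn, from 5′ to 3′ on the strand of the gene, with matches to these motifs in capitals. Atp5j and Ndufaf2 are the members whose difference between populations passed the test, Sdhd shares its start site with a neighbour, Cox6a1 and Cox8a were the lowest members in Tfh214 against Tfh21, and Cox8b is an isoform gene with little signal.
Atp5j, chr16:84834927-84835226, minus strand: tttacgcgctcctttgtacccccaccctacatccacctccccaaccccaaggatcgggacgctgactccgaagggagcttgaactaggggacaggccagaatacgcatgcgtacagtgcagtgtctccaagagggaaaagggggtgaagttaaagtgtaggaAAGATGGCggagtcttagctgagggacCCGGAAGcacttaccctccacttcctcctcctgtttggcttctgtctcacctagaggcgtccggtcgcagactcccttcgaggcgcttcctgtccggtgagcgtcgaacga
Ndufaf2, chr13:108158576-108158875, minus strand: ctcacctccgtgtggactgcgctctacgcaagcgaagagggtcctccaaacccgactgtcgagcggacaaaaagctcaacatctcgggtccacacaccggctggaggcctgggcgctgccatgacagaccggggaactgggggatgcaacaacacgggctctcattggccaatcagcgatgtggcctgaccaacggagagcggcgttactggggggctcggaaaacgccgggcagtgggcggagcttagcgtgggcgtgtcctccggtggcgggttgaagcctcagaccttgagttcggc
Sdhd, chr9:50603800-50604099, minus strand: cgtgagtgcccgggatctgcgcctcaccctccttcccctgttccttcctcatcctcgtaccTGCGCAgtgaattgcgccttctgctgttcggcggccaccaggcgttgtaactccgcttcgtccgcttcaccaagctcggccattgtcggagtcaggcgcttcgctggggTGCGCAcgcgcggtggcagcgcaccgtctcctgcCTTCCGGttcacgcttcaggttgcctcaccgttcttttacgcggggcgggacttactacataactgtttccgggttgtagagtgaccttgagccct
Cox6a1, chr5:115348909-115349208, minus strand: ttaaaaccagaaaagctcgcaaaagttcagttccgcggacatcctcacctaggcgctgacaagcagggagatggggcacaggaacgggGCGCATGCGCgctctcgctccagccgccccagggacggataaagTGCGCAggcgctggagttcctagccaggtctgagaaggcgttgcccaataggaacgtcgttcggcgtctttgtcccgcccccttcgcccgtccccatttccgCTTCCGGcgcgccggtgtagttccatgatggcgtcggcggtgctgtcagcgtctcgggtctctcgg
Cox8a, chr19:7217567-7217866, minus strand: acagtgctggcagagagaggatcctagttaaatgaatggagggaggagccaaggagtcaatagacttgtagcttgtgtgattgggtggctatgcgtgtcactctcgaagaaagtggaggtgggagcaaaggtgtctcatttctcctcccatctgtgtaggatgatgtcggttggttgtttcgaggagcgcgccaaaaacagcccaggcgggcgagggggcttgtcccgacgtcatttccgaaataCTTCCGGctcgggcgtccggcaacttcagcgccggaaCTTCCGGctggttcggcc
Cox8b, chr7:140900397-140900696, minus strand: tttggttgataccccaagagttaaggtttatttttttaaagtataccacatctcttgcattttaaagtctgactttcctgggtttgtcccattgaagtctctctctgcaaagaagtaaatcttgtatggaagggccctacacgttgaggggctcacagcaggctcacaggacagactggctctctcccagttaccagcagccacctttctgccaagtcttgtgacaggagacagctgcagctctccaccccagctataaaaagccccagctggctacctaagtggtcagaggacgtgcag

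The printed entry for Atp5j held 1 YY1 and 1 ETS match. A further entry for Atp5j (chr16:84835576-84835875), not printed, held none of the 4 patterns. Which entry belongs to the start site in the peak list was not tested. Sdhd held 1 ETS match and 2 matches to TGCGCA, Cox6a1 held 1 ETS match and matches to both NRF1 patterns, and Cox8a held 2 ETS matches. Ndufaf2 and Cox8b had none in this window. Cox8b also differed in base composition: its ratio of observed to expected CpG was 0.115, against 0.723 to 1.08 in the other 5 printed promoters. The median ratio was 0.823 over the 75 member promoters, 0.384 over all promoters and 0.804 over promoters of the genes tested. The members' ratio was thus close to that of other genes open enough to be tested and above that of promoters at large.

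Single motifs followed the same comparison. GCGCATGC was found in 16% of member promoters, 2.71% of all promoters and 6.11% of those of the genes tested. TGCGCA was found in 24%, 7.76% and 15.7%. CCGGAAG was found in 22.7%, 8.86% and 19.8%, and AAGATGGC in 12%, 2.75% and 4.91%. For members that were themselves tested, the shares were 18.2%, 25%, 25% and 13.6% in the same order. The SP1 pattern GGGCGG was less frequent in tested members (50%) than in the promoters of all genes tested (67.8%). Without that restriction it was found in 42.7% of member promoters and 35.7% of all promoters. The TATA pattern TATAAA was found in 2.27% of tested members and 6.17% of the promoters of all genes tested, and in 9.33% of members and 13.6% of all promoters. CCAAT (NFY) stood at 42.7% of members and 37.4% of all promoters, and at 43.2% of tested members and 40.1% of those of the genes tested. TGACGTCA (CRE) and CAAGGTCA (the oestrogen-related receptors) stood at 5.33% and 4% of members and 1.79% and 1.56% of all promoters. Their shares of the promoters of the genes tested were 3.79% and 0.821%. By complex, YY1 matches fell on 6 of 33 promoters of complex I and on 0 of 13 of complex IV. These matches describe letters in a window and no binding was measured.

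Member accessibility lay at start sites. Of the 280 peaks, 110 (39.3%) were at a start site, against 13.5% of the peaks of all genes, and they held 83.7% of the members' reads, against 48% for all genes. The median start-site peak of a member held 87 reads over the 6 libraries and the range was 10 to 594, while the median of all start-site peaks was 32 reads. The 170 member peaks elsewhere had a median of 13 reads and none exceeded 51 reads. The strongest of them was in intron 2 of Ndufs4, a complex I subunit (mm9, chromosome 13, 115123338 to 115124919; 51 reads). The strongest in the other complexes were in intron 3 of Sdha (38 reads), intron 1 of Cox8a (36 reads), intron 10 of Uqcrc2 (27 reads), intron 8 of Ndufaf5 (25 reads) and intron 6 of Atp5c1 (23 reads). At this depth no member peak away from a start site reached a mean of 20 reads, so differences were read at start sites only.

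A start-site peak was listed under the symbol of 76 of the 87 members (87.4%, against 72.2% of all genes). The level of a gene is given as its summed start-site CPM per kb of start-site peak, as the mean of the 6 libraries. The divisor is the summed length of all its start-site peaks, so the order of genes with several depends on this choice. By the strongest peak at the start alone, Cox8a stood at 45.4 CPM per kb, Ndufa4 at 51.6, Ndufaf4 at 50.7 and Cox4i1 at 36.1. Uqcrq stood at 50.8, above Uqcrfs1 (42.3). All except Uqcrfs1 were lower by the summed measure used below, while Atp5d was higher by it (36.6 against 30.4). The median level of the 76 members was 33 CPM per kb, against 25.9 over all 13799 genes with a start-site peak. Of the 76, 50 lay above the median of all genes. Among the sets read further below, the medians over genes with a start-site peak were 41.3 for regulators, 40.9 for the citrate cycle and 38.2 for other assembly factors and carriers. They were 39.9 for the cytosolic ribosome, 34.2 for the proteasome and 26 for the mitochondrial ribosome. Complex medians were 32.9 for I, 34.8 for the complex I assembly factors, 38.8 for II, 37.1 for III, 20.7 for IV and 35.8 for V. The 4 lowest of the 16 complex IV genes with a start-site peak were the isoform genes Cox6b2, Cox4i2, Cox8b and Cox8c.

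**Figure D1:**
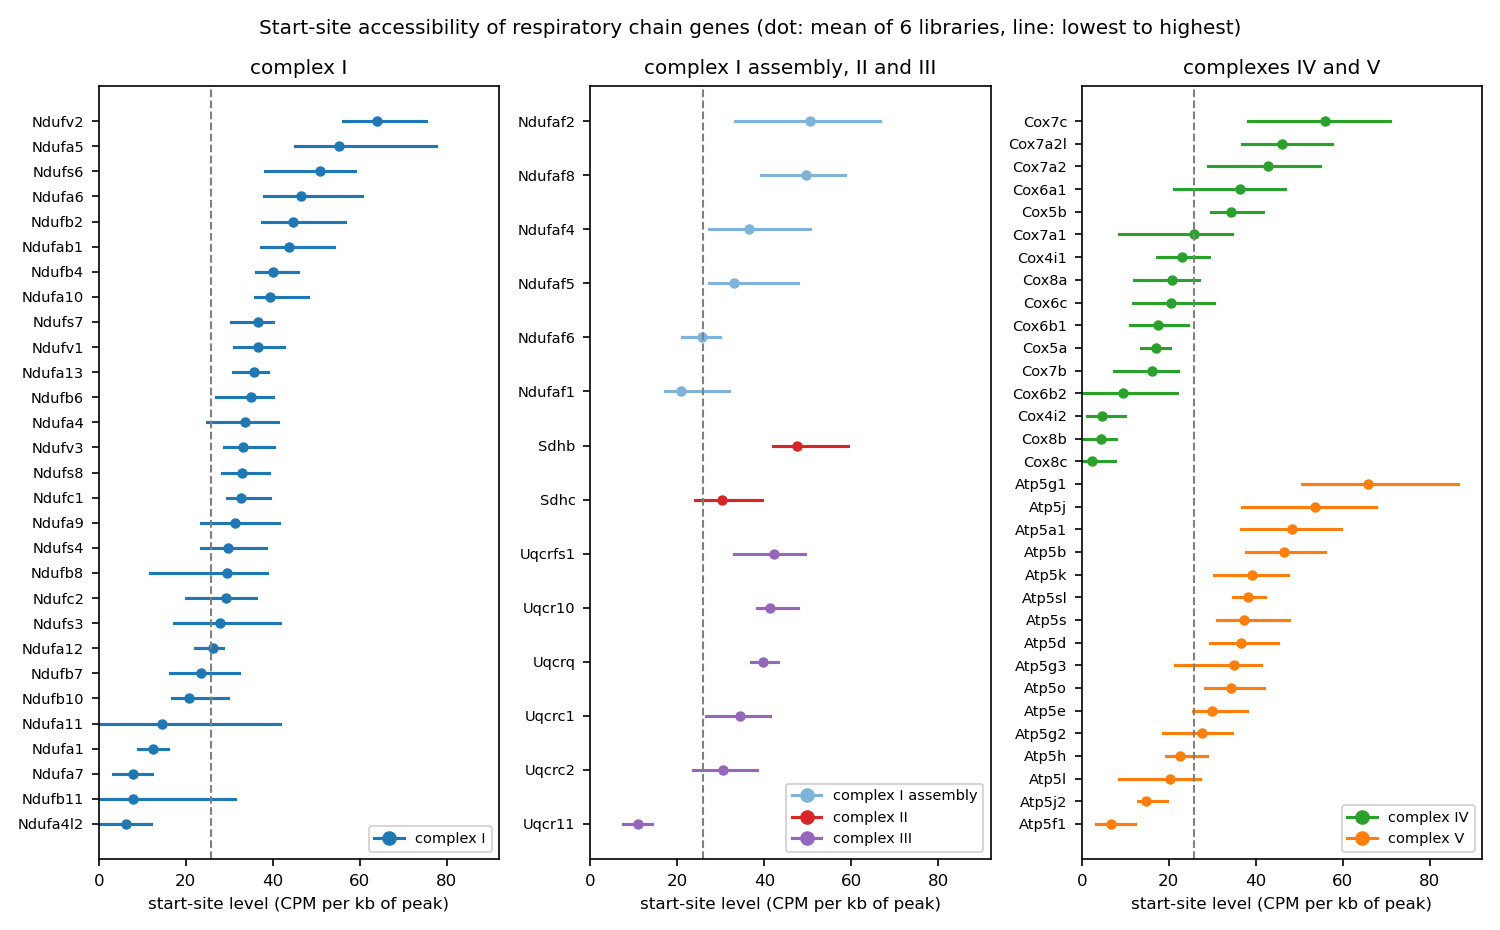
Start-site level of the members with a start-site peak under their symbol (1 is not shown), in CPM per kb of peak, ordered within each complex. Dots are means of 6 libraries, lines run from the lowest to the highest library, and the dashed line is the median of all genes (25.9). Atp5g1 and Ndufv2 lead at 65.7 and 63.9, and Cox8c is lowest at 2.25.

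Complex I opens the chain at NADH. Its highest start sites were Ndufv2, a flavoprotein-module subunit with an iron-sulphur cluster (63.9 CPM per kb), Ndufa5 of the peripheral arm (55.2) and Ndufs6 (50.9). Ndufv2 had 64.1, 64.5 and 57.5 CPM in WT, for Tfh21, Tfh214 and Tfh4 in that order, and 77.1, 71.4 and 58.1 CPM in KO; the same order of libraries is kept from here on. The lowest library was WT Tfh4, and WT and KO overlapped. The lowest complex I level was that of Ndufa4l2 (6.27 CPM per kb), a gene known for induction by hypoxia. Among the assembly factors, Ndufaf2 (50.5), Ndufaf8 (49.7) and Ndufaf4 (36.4) led and Ndufaf1 (20.8) was lowest.

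Complex II is succinate dehydrogenase, which also belongs to the citrate cycle. Sdhb, its iron-sulphur subunit, stood at 47.5 CPM per kb and Sdhc, a membrane anchor, at 30.2. Sdhb had 42.8, 40.9 and 39.3 CPM in WT and 52.3, 38.8 and 37.1 CPM in KO, with KO Tfh21 highest and the other 5 within 37.1 to 42.8. Sdhc had 33.8, 36.2 and 28.4 CPM in WT and 46.6, 35.1 and 33.9 CPM in KO, again with KO Tfh21 highest. Sdha, the flavoprotein subunit, and Sdhd, the other anchor, had no start-site peak under their own symbols.

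In complex III the highest were the Rieske iron-sulphur protein gene Uqcrfs1 (42.3 CPM per kb), Uqcr10 (41.4) and Uqcrq (39.8), and the lowest was Uqcr11 (11). In complex V the highest was Atp5g1 (65.7), 1 of 3 genes for the c subunit of the membrane ring, followed by Atp5j (53.5), a subunit of the peripheral stalk, and Atp5a1 (48.4), the alpha subunit of the catalytic head. The lowest was Atp5f1 (6.82), whose listed start-site peak held 11 reads. Of the c subunit genes, Atp5g2 stood at 27.6 and Atp5g3 at 35, both below Atp5g1 at 65.7, although they encode the same mature protein. Per kb, the range over libraries of Atp5g1 (50.7 to 86.5) did not overlap that of Atp5g2 (18.6 to 34.6) or Atp5g3 (21.4 to 41.1). Those of Atp5g2 and Atp5g3 overlapped. In plain CPM the range of Atp5g1 (32.3 to 55.1) met those of Atp5g2 (21 to 39) and Atp5g3 (19.6 to 37.6). Atp5g2 had 3 start-site peaks over 1126 bases, and its strongest alone stood at 42.4 CPM per kb.

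Cytochrome c oxidase, complex IV, has subunits with alternative isoform genes, of which the form usual in heart and skeletal muscle, testis or lung is often a separate gene. The highest of its start sites were Cox7c (55.8 CPM per kb), Cox7a2l (46.1), which encodes a supercomplex assembly factor, and Cox7a2 (42.7). In each listed set with a start-site peak for both forms, the broadly expressed form was higher. Cox4i1 stood at 23.1 and the lung form Cox4i2 at 4.72. Cox6b1 stood at 17.5 and the testis form Cox6b2 at 9.48. Cox7a2 stood at 42.7 and the muscle form Cox7a1 at 25.8. Cox8a stood at 20.8, the muscle form Cox8b at 4.42 and the testis form Cox8c at 2.25. Ndufa4, a subunit now assigned to complex IV, stood at 33.6 against 6.27 for Ndufa4l2.

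Counts behind the minor forms were small. Cox8b had 4, 4 and 9 reads in the WT libraries and 4, 0 and 6 in the KO libraries, and Cox4i2 had 3, 3 and 5 and then 1, 3 and 9. Cox6b2 held 11 reads in all over a peak of 167 bases, so its level per kb rests on few reads, and the ranges of Cox6b1 and Cox6b2 per kb overlapped. Cox7a1 held 55 reads over 295 bases, and its range also met that of Cox7a2. Cox6a1 stood at 36.4 CPM per kb, and its muscle counterpart Cox6a2 had no peak under its symbol. Cox7b stood at 16.1, and Cox7b2 had 8 peaks of which 0 were at a start site.

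**Figure D2:**
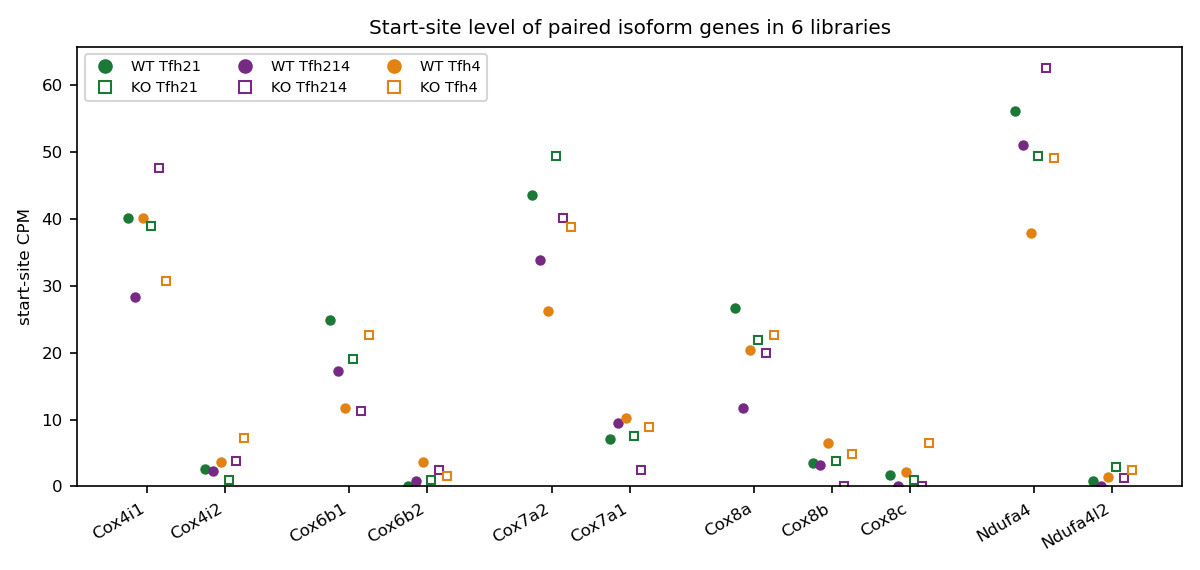
Summed start-site CPM of the broadly expressed and the alternative isoform genes in each of the 6 libraries (vertical axis, CPM; filled circles WT, open squares KO, colours by population). Cox8b and Cox8c lie at or below 6.55 CPM in every library, and Cox8a lies between 11.8 and 26.7 CPM.

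Shared start sites set which members could be read under their own symbol. An opposite-strand gene started within 1000 bases for 25 of the 87 members (28.7%), against 11.9% of all genes. Of the 11 members with no start-site peak of their own, 10 began inside a peak that the list assigns to the neighbour. These were Atp5c1 (with Kin), Ndufa8 (Morn5), Ndufaf7 (Cebpz), Ndufb3 (Fam126b), Ndufb5 (Mrpl47), Ndufb9 (Tatdn1), Ndufs1 (Eef1b2), Sdha (Ccdc127), Sdhd (Timm8b) and Uqcrb (Gm10767). Cox7b2 was the exception. Ndufa7 (Rps28), Ndufa11 (Vmac) and Ndufb11 (Rbm10) had a weak peak of their own and a stronger one under the neighbour. The starts of these 13 gene pairs were 8 to 307 bases apart, and the shared peaks held 137 to 396 reads.

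Read by position, the 13 start sites had levels within the range of the other members. Their shared peaks stood at 33.6 to 54.9 CPM per kb with a median of 38.8. The highest per kb was that of Ndufb5 and Mrpl47 (54.9). The one with most reads was that of Ndufa11 and Vmac (mm9, chromosome 17, 56856283 to 56857431; 50.9 CPM per kb), with 396 reads, against 13 reads under Ndufa11 alone. The peak of Ndufs1, the largest complex I subunit, and Eef1b2 (chromosome 1, 63222924 to 63223964) held 56, 68 and 72 reads in the WT libraries and 61, 51 and 70 in KO. The Sdha and Ccdc127 peak (chromosome 13, 74487215 to 74488207) held 43, 52 and 38 reads in WT and 55, 35 and 47 in KO. The Sdhd and Timm8b peak (chromosome 9, 50411680 to 50412563) held 38, 41 and 44 reads in WT and 45, 26 and 40 in KO, and its starts were 51 bases apart. Which gene such a peak serves cannot be told apart in these data. No peak lay within 250 bases of the start of 4 members, Atp5f1, Cox7b2, Cox8c and Ndufa4l2. The low levels given above for Atp5f1, Cox8c and Ndufa4l2 therefore come from listed peaks further off. A further 9 protein-coding genes of RefSeq with names of this kind had no peak under their symbol: Cox6a2, Ndufa2, Ndufa3, Ndufaf3, Ndufb1, Ndufb4b, Ndufb4c, Ndufs5 and Uqcrh. For 7 of them a gene with a start-site peak overlapped the gene or lay within 1000 bases of it. Examples were Lrrc41 beside Uqcrh (502 reads) and Ik beside Ndufa2 (310 reads). The distance between the starts was not measured for these 7, so a shared start site was not shown.

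**Figure D3:**
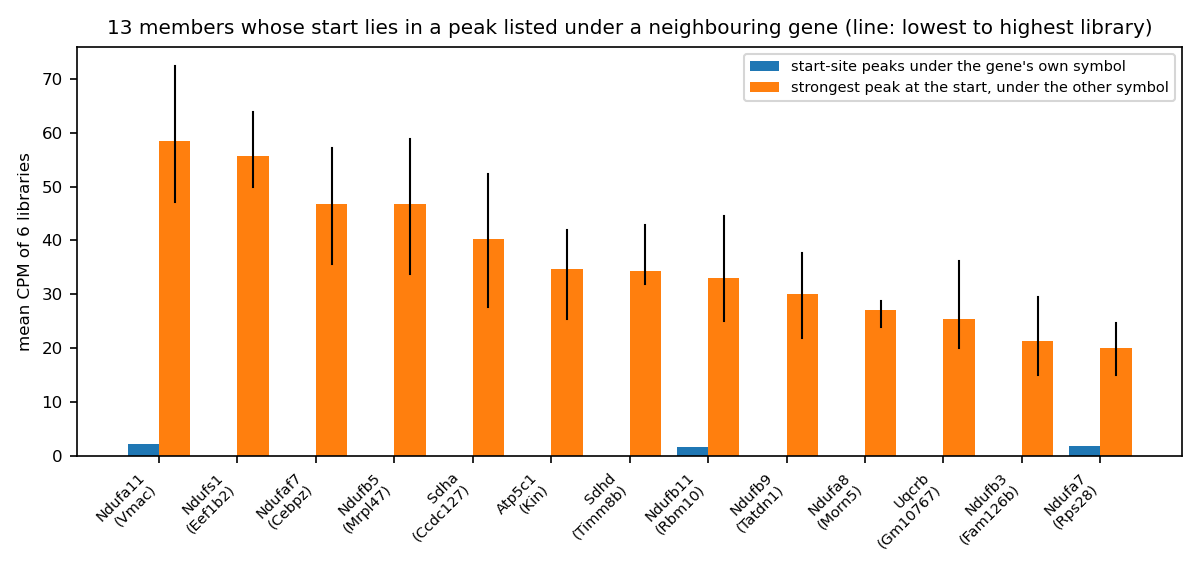
Mean CPM of 6 libraries for 13 members, with the start-site peaks listed under the member in blue and the strongest peak at its start, listed under the neighbour named in brackets, in orange. Lines run from the lowest to the highest library. The shared peak is the higher bar for all 13, and 10 members have no start-site peak under their own symbol.

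Summed over members, start-site accessibility followed each library's overall start-site signal. The members took 1988, 1850 and 1694 CPM in WT and 2221, 2151 and 1850 CPM in KO, from 1718 to 2353 reads per library. Start sites of all genes took 31.5%, 31.0% and 27.6% of the reads in WT and 36.4%, 34.9% and 29.7% in KO. Per 1000 start-site reads the members took 6.3, 5.96 and 6.13 in WT and 6.1, 6.16 and 6.23 in KO. The Wilson 95% intervals of all 6 values overlapped, with 6.05 to 6.57 for the highest and 5.73 to 6.21 for the lowest. From KO Tfh21 down to WT Tfh4, the libraries with more of their reads at start sites were those with more CPM in the members.

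Differences at single genes were tested with limma on log2(CPM + 1), for the 7087 genes with a mean of at least 20 start-site reads, in a model with genotype and population as additive terms. Of the members 50 qualified (57.5%, against 37.1% of all genes): 18 of complex I, 5 assembly factors, 2 of II, 5 of III, 7 of IV and 13 of V. The adjusted p-values come from limma with Benjamini-Hochberg adjustment over the 7087 genes and are called at 0.05. Differences are log2 values with their standard error (SE), and a positive value is higher in the group named first. Scaling to start-site reads moved the median of all genes from 0.17 to 0.01 for KO against WT and from -0.26 to -0.03 for Tfh4 against Tfh21, so each difference is to be read against the median of all genes beside it.

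No member was called between genotypes. The count for KO against WT was 0 of 50 in either direction by limma. An unadjusted limma p under 0.05 was found for 9 of the 50, against 1383 of the 7087 genes. Both edgeR and DESeq2 on recovered reads also gave 0 calls among the members, with 0 unadjusted. Among all 7087 genes 1.02% were called higher in KO and 0% lower. The median of the members was 0.16 and that of all genes 0.17, and 42 of 50 members (84%) had a positive value, against 84.2% of all genes. With start-site scaling the members' median was 0.00. Complex medians ran from 0.13 (II and III) to 0.27 (the 5 assembly factors, all positive).

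The member nearest the threshold was Ndufaf4, a complex I assembly factor. It had 32.1, 29.1 and 26.9 CPM in WT and 43.8, 50.1 and 34.7 CPM in KO, and every KO library lay above every WT library. The fitted difference was 0.52 (SE 0.16; limma adjusted p = 0.0694), or 1.43-fold, on 110 reads in WT and 129 in KO. The adjusted p ranged from 0.0585 to 1 over 18 alternative settings. By adjusted p the next was Atp5j (0.27, SE 0.10; limma adjusted p = 0.118). By size of the difference the next were complex V genes. Atp5g3 had 19.6, 33.8 and 31.3 CPM in WT and 36.2, 37.6 and 33.9 CPM in KO (0.37, SE 0.17; limma adjusted p = 0.212). Its WT Tfh21 value stood below the other 5. Atp5d, the delta subunit, and Atp5a1 each had 0.36. At the other end Ndufv3 had -0.18, Ndufs7 -0.16, Atp5g2 -0.08 and Uqcrc1 -0.04, and none passed the test. Every KO library lay above every WT library for 6 of the 50 members (12%), which were Atp5a1, Atp5d, Atp5g3, Ndufab1, Ndufaf4 and Uqcrc2, against 12.3% of all genes.

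Within each population the genotype comparison is between 2 libraries and has no replicate check. Members were counted where CPM + 1 differed by 1.5-fold or more in either direction and the higher library had at least 20 reads, while the printed ratios are of plain CPM. Such a difference was found in Tfh21 for 3 of 56 members, against 9.02% of all genes. These were Atp5g3 (1.84-fold, exact binomial 95% interval 1.06 to 3.27), Ndufs4 and Atp5a1, all higher in KO. In Tfh214 it was found for 5 of 53 members, against 7.89% of all genes. They were Ndufaf4 (1.72-fold, 1.07 to 2.77), Cox4i1 (1.68-fold, 1.04 to 2.73), Ndufa5, Atp5g1 and Ndufaf5, all higher in KO. In Tfh4 it was found for 2 of 55, both higher in KO and among them Cox6b1 (1.94-fold, 1.01 to 3.84), against 10.4% of all genes. No member was counted in more than 1 population, but the share of all genes counted in more than 1 was not computed, so nothing is read from this. Cox6b1 had 24.9, 17.3 and 11.7 CPM in WT and 19, 11.3 and 22.6 CPM in KO, so KO was lower in Tfh21 and Tfh214 and higher in Tfh4. In plain CPM its Tfh214 ratio of 0.652 (0.264 to 1.47, on 9 and 22 reads) also passes 1.5-fold, in the direction opposite to Tfh4, and the count in Tfh214 is then 6 of 53, against 9.16% of all genes.

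Tfh4 and Tfh21 differed at 2 members. Atp5j and Ndufaf2 were lower in Tfh4, and 0 members were higher. The 2 of 50 (4%) stand against 3.13% of all genes called lower and 0% called higher. The members' median was -0.24 and that of all genes -0.26. A negative value was found for 46 of 50 members, against 6505 of the 7087 genes. With start-site scaling the members' median was 0.00.

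Atp5j encodes coupling factor 6 of the ATP synthase stalk. It had 90.9, 97.5 and 64.1 CPM in WT and 114, 118 and 74.3 CPM in KO, on 88 to 124 reads per library. In both genotypes Tfh4 was the lowest population, and both Tfh4 libraries lay below all 4 others. The difference from Tfh21 was -0.56 (SE 0.12; limma adjusted p = 0.0153), a ratio of 0.705 in WT (exact binomial 95% interval 0.524 to 0.947) and 0.651 in KO (0.49 to 0.861). With start-site scaling it was -0.32, with an adjusted p of 1. Most of its reads (594 of 620) were in a peak of 1455 bases (mm9, chromosome 16, 84834735 to 84836190). That peak also covers the stretch where Gabpa starts on the opposite strand, 502 bases from the start of Atp5j. Gabpa encodes the DNA-binding subunit of GABP, and it had no start-site peak under its own symbol, so the difference belongs to a region shared by both genes.

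Ndufaf2, whose protein acts late in complex I assembly, had 52.6, 44 and 31.3 CPM in WT and 62.8, 52.6 and 42.8 CPM in KO. Its order was Tfh21, Tfh214, Tfh4 in both genotypes, and both Tfh4 libraries lay below both Tfh21 libraries. The difference of Tfh4 from Tfh21 was -0.64 (SE 0.17; limma adjusted p = 0.0351), with ratios of 0.596 (0.393 to 0.898) in WT and 0.681 (0.466 to 0.993) in KO. With start-site scaling it was -0.40, with an adjusted p of 1. Its peak (chromosome 13, 108948368 to 108949312) is shared with Ercc8, a DNA repair gene that starts 112 bases away on the other strand. Neither Atp5j nor Ndufaf2 was called by edgeR or DESeq2, or when the WT Tfh21 or the KO Tfh21 library was left out (limma adjusted p = 0.444 and 0.602 for both genes), while without WT Tfh4 the members called were Atp5j and Atp5g2.

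The members next in order did not pass. Atp5g2 had 38.3, 27.5 and 29.1 CPM in WT and 39, 31.3 and 21 CPM in KO (-0.62, SE 0.21; limma adjusted p = 0.0742). Cox7a2 had 43.6, 33.8 and 26.2 CPM in WT and 49.5, 40.1 and 38.8 CPM in KO (-0.53, SE 0.19; limma adjusted p = 0.0818). The highest values were Atp5g3 (0.28), Ndufa13 (0.19) and Atp5a1 (0.04). The 5 complex III members tested all lay between -0.13 and -0.05, above the median of all genes, and the 7 of complex IV had a median of -0.37. Both Tfh4 libraries lay below both Tfh21 libraries for 24 of 50 members (48%), against 50.7% of all genes, and above them for 1 (2%; Ndufa13), against 0.988%.

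Pairs of libraries gave the same range. In WT, 8 of 58 members were past 1.5-fold between Tfh4 and Tfh21, against 10.5% of all genes, and 7 of them were lower in Tfh4, led by Cox6b1 (0.467, interval 0.236 to 0.894). In KO it was 4 of 54, against 15% of all genes: Atp5g2 (0.538, 0.316 to 0.901), Ndufs3, Ndufs4 and Atp5j, all lower in Tfh4. Ndufaf2 was past the fold in WT and Atp5j in KO. No member was past it in both genotypes, but the share of all genes past it in both was not computed. In plain CPM the counts are 9 of 58 and 5 of 54, against 11.9% and 16.5% of all genes, with Ndufb7 in WT and Ndufb2 in KO added, each with a ratio of 0.662.

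**Figure D4:**
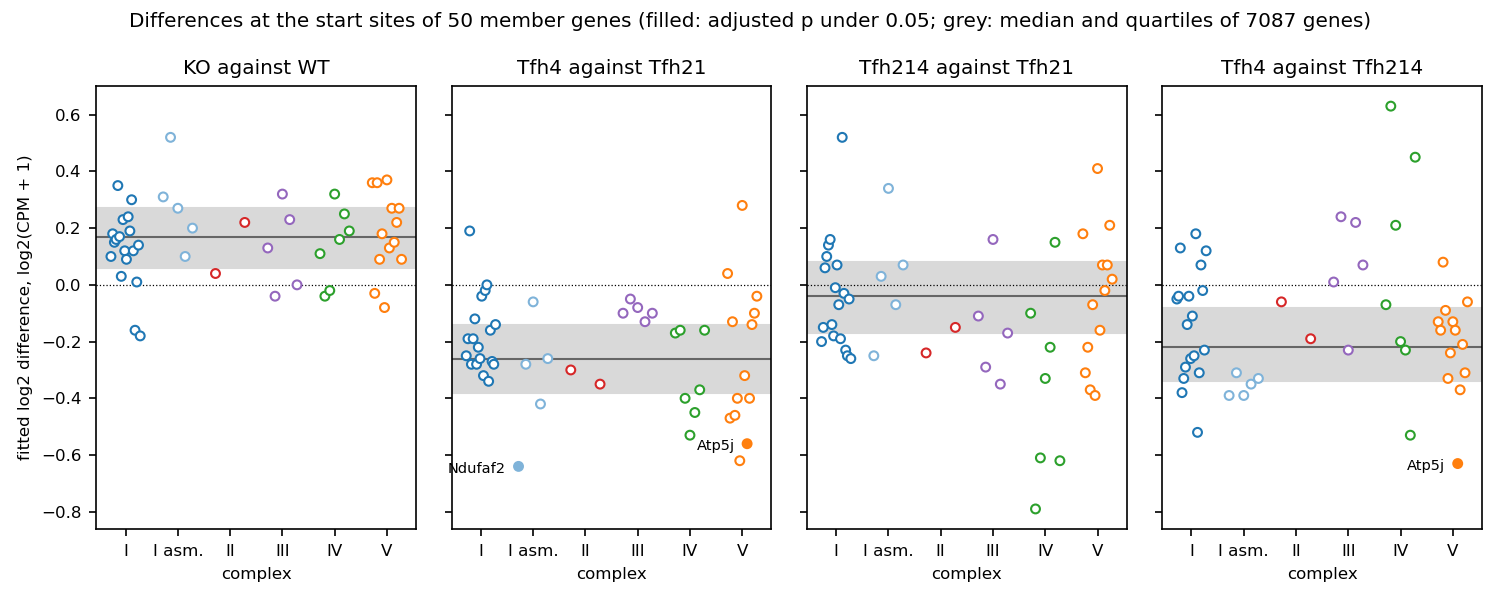
Fitted log2 difference in start-site CPM + 1 (vertical axis) for the 50 members tested, by complex, in 4 comparisons, with filled points for an adjusted p under 0.05. Grey lines and bands are the median and the quartiles of all 7087 genes. The members scatter around the grey line in each comparison, and the filled points are Atp5j and Ndufaf2.

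Tfh214 and Tfh21 differed at 0 members and 0 genes. Of the 50 members limma called 0% higher and 0% lower, as for all genes. An unadjusted limma p under 0.05 was found for 4 members, against 306 of the 7087 genes. edgeR gave 0 calls with 3 unadjusted, and DESeq2 gave 0 with 0 unadjusted. The median of the members was -0.10 and that of all genes -0.04, and it was -0.06 and 0.00 with start-site scaling. The lowest members were complex IV genes: Cox6a1, Cox8a and Cox6b1. The median of the 7 complex IV genes tested was -0.33.

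Cox6a1 had 24.9, 17.3 and 21.8 CPM in WT and 27.6, 12.5 and 25 CPM in KO. The 2 Tfh214 libraries were the lowest of the 6, with 22 and 10 reads. The difference was -0.79 (SE 0.26; limma unadjusted p = 0.00304, adjusted p = 0.999). The ratio was 0.694 (0.378 to 1.26) in WT and 0.454 (0.197 to 0.958) in KO. Cox8a had 26.7, 11.8 and 20.4 CPM in WT and 21.9, 20 and 22.6 CPM in KO (-0.62, SE 0.27; limma adjusted p = 0.999). Here WT Tfh214 stood apart with 15 reads, while KO Tfh214 lay close to the other libraries. Cox6b1 (-0.61) and Atp5g2 (-0.39) followed. Among members with positive values were Atp5g3 (0.41), Ndufaf5 (0.34) and Atp5s (0.21), and none passed the test.

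Both Tfh214 libraries lay below both Tfh21 libraries for 16 of 50 members (32%), against 16.8% of all genes, and above them for 2 (4%), against 7.65%. With each group of 2 libraries this count is a description, and the groups share their libraries with the other comparisons. By complex the 16 lower members were spread over all 5 complexes: Cox6a1, Cox6b1, Cox7a2, Cox7a2l and Cox8a of IV, Ndufa10, Ndufa12, Ndufs7, Ndufs8 and Ndufv3 of I, Atp5b, Atp5e and Atp5g2 of V, Uqcrfs1 and Uqcrq of III, and Sdhb of II. At 1.5-fold, 6 of 57 members differed in WT, against 5.5% of all genes, with Atp5g3 among those higher and Cox8a, Ndufb7, Ndufb10 and Uqcrc1 lower in Tfh214. In KO 4 of 54 did, against 6.12% of all genes, with Ndufaf5 higher and Cox6a1, Ndufs3 and Cox6b1 lower. In plain CPM Ndufs4 (1.53, 0.781 to 3.11) is added in WT, which makes 7 of 57, against 6.25% of all genes.

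**Figure D5:**
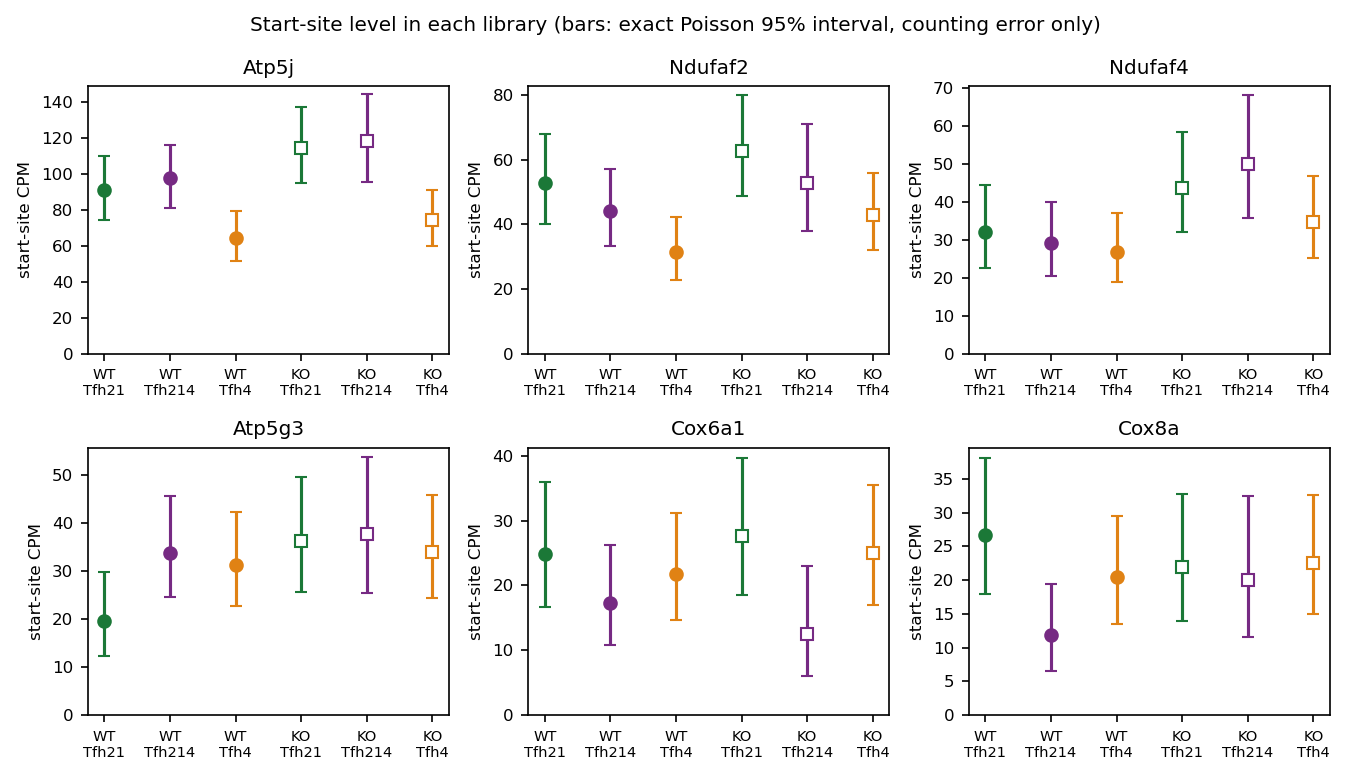
Start-site CPM in each library for 6 members (vertical axes start at 0; filled circles WT, open squares KO, colours by population), with exact Poisson 95% intervals that cover counting error only. Both Tfh4 libraries are lowest for Atp5j (64.1 and 74.3 CPM), both Tfh214 libraries are lowest for Cox6a1 (17.3 and 12.5 CPM), and the intervals of most libraries overlap.

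Between Tfh4 and Tfh214, Atp5j was again lower in Tfh4. It was the 1 member of 50 called, against 2.2% of all genes called lower and 0% called higher. The difference was -0.63 (SE 0.12; limma adjusted p = 0.000708), or 0.647-fold, with ratios of 0.657 (0.494 to 0.871) in WT and 0.631 (0.468 to 0.85) in KO. This comparison shares its Tfh4 libraries with the one against Tfh21. With start-site scaling the difference was -0.43, with an adjusted p of 0.728, and it was not called by edgeR or DESeq2 or without WT Tfh21 (0.239) or KO Tfh21 (0.244). The members' median was -0.16 and that of all genes -0.22. Cox7c had 41, 42.5 and 27.7 CPM in WT and 42.8, 51.3 and 37.1 CPM in KO (-0.53, SE 0.19; limma adjusted p = 0.0891), and both Tfh4 libraries were its lowest. Ndufaf5 had -0.39, and Cox6a1 (0.63), Cox8a (0.45), Uqcrc1 (0.24) and Uqcrfs1 (0.22) had the highest values. Both Tfh4 libraries lay below both Tfh214 libraries for 16 of 50 members (32%), against 42.9% of all genes, and above them for 4 (8%; Cox6a1, Cox8a, Ndufa13 and Ndufc1), against 3.03%. At 1.5-fold 7 of 57 members differed in WT, against 12.5% of all genes, and 8 of 50 in KO, against 11.4%.

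With the start-site peak taken by position, so that a peak under a neighbour's symbol counts for the member, 60 members could be tested among 6821 peaks. The calls were again Atp5j and Ndufaf2 for Tfh4 against Tfh21 (2 of 60, where 2.13% of all peaks were called lower), Atp5j for Tfh4 against Tfh214 (1 of 60, against 1.91%) and 0 in the other comparisons (0.938% of all peaks were called higher in KO and 0% between Tfh214 and Tfh21). All 13 members with a peak under the neighbour's symbol were among the 60, including Sdha, Sdhd, Ndufs1 and Uqcrb, and 0 of the 13 were called.

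Other genes of mitochondrial respiration were read as counts. Of 22 tested assembly factors and carriers outside the member names, such as Surf1, Sco1 and Cycs, 0 were called in any of the 4 comparisons, and so were 0 of 10 citrate cycle genes and 0 of 38 genes of the mitochondrial ribosome. Of 9 regulators tested, Tfam was called lower in Tfh4 than in Tfh214 (log2 difference -0.76, adjusted p = 0.0303 by limma with Benjamini-Hochberg adjustment). With start-site scaling 0 of 7087 genes were called in that comparison. Tfam encodes a protein that packages mitochondrial DNA and takes part in its transcription. Its values were 33, 41.7 and 22.6 CPM in WT and 39, 45.1 and 28.3 CPM in KO, with both Tfh4 libraries lowest. A start-site peak was listed for 10 of the 13 regulators, and Gabpa, Tfb1m and Tfb2m had none under their own symbols. Start sites of the regulators Yy1 (57.3 CPM per kb), Esrra (51.9), Gabpb1 (42) and Nrf1 (35.4) were open in these cells. Ppargc1a, a coactivator known for inducing respiration in muscle and brown fat, stood at 10.3, while its relative Ppargc1b stood at 40.5. Sets outside respiration had like values, with 0 of 23 proteasome genes and 1 of 55 cytosolic ribosomal protein genes (Rpl37a, lower in Tfh4 than in Tfh214) called. For Tfh4 against Tfh21 the medians of these sets ran from -0.27 to -0.19, around the -0.24 of the members.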

How the data were processed

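The data are ATAC-seq of 6 libraries, with 75-bp paired reads per the labels' protocols. The submitters' processing notes name Bowtie 1.3.0, MACS2 2.0, HOMER and the build mm9 but give no role for any of them. Duplicate handling, the transposase shift and whether peaks were called on pooled libraries were not given in the sources used here. Values are CPM (reads per 1000000) as deposited by the authors, relative to the reads in the listed peaks. Whole reads were recovered from the CPM step of each library (99.9989% to 100% of values within 0.02 of a whole number), which gave 798555 to 1373218 reads per library. Intervals hold for counting error alone, and any PCR copies of a fragment left in the counts are treated as independent.

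CPM of peaks with section TSS were summed per gene and fitted with limma 3.58.1 (R 4.3.3) on log2(CPM + 1), with additive genotype and population, a variance trend and 2 residual degrees of freedom. The populations stand in for replicates of genotype and the genotypes for replicates of population, so p-values measure the spread between single libraries. The fold change on the log2(CPM + 1) scale understates changes of low genes. Pairs of libraries were compared by the ratio of CPM with exact binomial 95% intervals, and counted past 1.5-fold on CPM + 1. edgeR 4.0.16 (quasi-likelihood test) and DESeq2 1.42.0 on the recovered reads, 3 scalings, pseudocounts of 0.25 and 4, other filters and leaving out each library were tried. The limma fit was tested on simulated data.

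Named genes are, per complex, the 3 highest and the lowest by level, the Sdh and isoform genes, the genes called or the 4 with the largest difference in each direction, members with no start-site peak, and the strongest peak elsewhere; 1 gene that the rule names is not reported here, but stays in the counts and medians. Further genes named for pairs of libraries or groups that do not overlap were chosen after their values were seen. The members, lists and motifs were chosen with earlier results of these data known. Peak positions are as deposited, in mm9, and no genome sequence was used. Promoters are from RefSeq (GRCm38.p6), matched by symbol, and none of their coordinates was set against a peak.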

Additional observations from a re-analysis of the deposited data

Results flagged for a closer look

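Reads on the mitochondrial genome, which encodes further subunits of complexes I, III, IV and V, were outside the comparisons above. The list holds 22 peaks there, over 9781 bases. They took 273 CPM in Tfh21, 185 in Tfh214 and 219 in Tfh4 of WT, and 211, 308 and 193 CPM in the KO libraries, from 222 to 307 reads per library, far above the 3 counts that a count of 0 allows. The KO to WT ratio was 0.772 in Tfh21 (exact binomial 95% interval 0.647 to 0.921), 1.67 in Tfh214 (1.39 to 2) and 0.88 in Tfh4 (0.74 to 1.05). The directions in Tfh21 and Tfh214 were opposite, with intervals that exclude 1, but each ratio is 1 library against 1, and that the populations differ was not tested.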

How the results depend on the processing

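The count of members called for KO against WT and for Tfh214 against Tfh21 was 0 under every alternative run. For Tfh4 against Tfh21 it fell from 2 to 0 with median-of-ratios scaling, scaling to start-site reads, cyclic loess, all peaks of the gene, no variance trend, edgeR and DESeq2, and to 1 with no filter on low reads; without each library in turn it ranged from 0 to 2. For Tfh4 against Tfh214 it fell from 1 to 0 under the same 7 settings, and ranged from 0 to 1 without each library. The calls of all 7087 genes fell in the same way, from 72, 222 and 156 to 1, 0 and 0 with start-site scaling. Differences of the members kept their sign for Atp5j and Ndufaf2 under all 19 alternatives of each comparison, with Atp5j from -0.62 to -0.27 and Ndufaf2 from -0.73 to -0.37 for Tfh4 against Tfh21. The cause of the losses was not tested.

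The members' median for KO against WT was -0.01 with median-of-ratios scaling, 0.00 with start-site scaling and with cyclic loess, and 0.27 with a minimum mean of 50 reads, which 5 members passed. For Tfh4 against Tfh21 it was 0.02, 0.00, 0.01 and -0.28 in that order, -0.22 with pseudocount 4, -0.19 with no filter, -0.14 with all peaks and -0.26 with the strongest start-site peak, and from -0.26 to -0.19 without each library. For Tfh4 against Tfh214 it was 0.05, 0.03, 0.04 and -0.38 in that order. For Tfh214 against Tfh21 it was 0.07 with at least 50 reads and -0.06 with the strongest peak, and from -0.11 to -0.06 without each library.

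Small differences changed sign when a library was left out, as follows. Over the 6 fits without a library, KO against WT ranged from -0.23 to 0.09 for Uqcrc1 and from -0.21 to 0.10 for Atp5g2. Uqcrc1 was positive without either Tfh21 library (0.09) or either Tfh4 library (0.02), and Atp5g2 without either Tfh4 library. Tfh4 against Tfh21 ranged from -0.08 to 0.64 for Atp5g3 and from -0.18 to 0.27 for Atp5a1, with the negative values without WT Tfh21 for both genes, and also without WT Tfh4 for Atp5a1. Tfh4 against Tfh214 ranged from -0.04 (without WT Tfh214) to 0.52 for Uqcrc1. Taking the start-site peak by position and the fold of pairs in plain CPM were chosen after seeing the data; the latter added 1 member in each of 4 of the 9 pairs. No paired analysis was possible because each genotype and population has 1 library and the labels carry no replicate numbers; population and genotype are already blocks of the model.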
